A study of Mus musculus with 2 samples.

Results

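The alpha and beta globin gene clusters of the mouse were examined in maps of CTCF binding from newborn midbrain. The members were 7 globin genes of the GENCODE vM21 annotation, and all CTCF peaks around them. Of these genes, Hbb-bt, Hbb-bs, Hbb-bh1 and Hbb-y lie on chromosome 7, and Hba-x, Hba-a1 and Hba-a2 on chromosome 11. A cluster was taken from the first base of its first listed gene to the last base of its last listed gene, and a window added 100 kb on each side. Every peak of the optimal peak list with its summit, the position of highest signal, in a window was a member, whatever its signal. This gave 5 peaks in the beta window and 22 in the alpha window, so 27 of the 68590 optimal peaks on chromosomes 1 to 19 and X.

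CTCF chromatin immunoprecipitation and sequencing (ChIP-seq) was carried out on the midbrain of newborn mice (strain B6NCrl, postnatal day 0). There was 1 group with 2 replicates, for which sex was not collected, no genetic change or treatment is named, and a control alignment was used in peak calling. The labels give 1 biosample and 1 donor record for both, and how far the replicates differ may therefore reflect technical variation alone. With 1 group there were no conditions to compare, and no test was made: counts are given beside the same counts over the genome.

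Hemoglobin is assembled from alpha-type and beta-type globin chains, and each cluster holds embryonic genes and adult genes that are switched on in turn in red blood cell precursors. Distant enhancers act on both clusters: the locus control region on the Hbb-y side of the beta genes, and a group of enhancers within and beside the neighbouring gene Nprl3 for the alpha genes. CTCF is a DNA-binding protein of most cell types that recognises a long motif with a direction, halts the loop-forming cohesin complex, and has been studied in red cell precursors as a boundary factor on both sides of these clusters. Peaks report CTCF in this bulk tissue and do not measure globin transcription, and which cells of the midbrain a peak came from cannot be told apart.

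The sequences under the peaks come first, because the motif, its strand and the repeats of sequence between gene copies recur in the values that follow. A CTCF motif of 20 bp was searched on both strands within 50 bp of each summit, with a weight matrix learned from peaks on even-numbered chromosomes and a match threshold of 1e-05 per position. The motif was found at 4 of 5 beta peaks and 15 of 22 alpha peaks, where 61.7% of all optimal peaks had one, and neither count was tested against that share. A match on the minus strand is written as the reverse complement, so that each motif reads in the same direction. In the beta window all 4 matches lay on the minus strand. They are shown in the order of the chromosome, with the 20 bp of the motif in capitals and 15 bp on each side in lower case, from the RefSeq GRCm38.p6 (mm10) reference.
beta peak 1 (chr7:103807054-103807103, minus strand): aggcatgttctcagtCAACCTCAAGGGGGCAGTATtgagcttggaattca
beta peak 3 (chr7:103874624-103874673, minus strand): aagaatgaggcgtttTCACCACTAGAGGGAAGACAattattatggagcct
beta peak 4 (chr7:103913160-103913209, minus strand): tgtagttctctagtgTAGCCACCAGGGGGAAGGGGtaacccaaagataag
beta peak 5 (chr7:103942923-103942972, minus strand): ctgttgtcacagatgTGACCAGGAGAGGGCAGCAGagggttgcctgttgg

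In the alpha window 5 matches lay on the plus strand and 10 on the minus strand. The nearest peak with a motif on the lower side of the alpha genes, within Nprl3, had it on the plus strand, and the next 5 peaks with a motif along the chromosome, between the alpha genes and beyond them, all had it on the minus strand. The run ended at alpha peak 21, whose motif was on the plus strand. The 6 before it are shown in the same way.
alpha peak 13 (chr11:32247246-32247295, plus strand): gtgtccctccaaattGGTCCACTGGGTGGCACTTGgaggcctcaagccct
alpha peak 16 (chr11:32286914-32286963, minus strand): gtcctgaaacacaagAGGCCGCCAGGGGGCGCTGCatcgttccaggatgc
alpha peak 17 (chr11:32300019-32300068, minus strand): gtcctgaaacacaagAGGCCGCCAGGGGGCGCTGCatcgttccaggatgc
alpha peak 18 (chr11:32321375-32321424, minus strand): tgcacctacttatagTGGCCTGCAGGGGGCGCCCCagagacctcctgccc
alpha peak 19 (chr11:32324822-32324871, minus strand): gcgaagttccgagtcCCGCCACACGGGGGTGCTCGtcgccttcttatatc
alpha peak 20 (chr11:32341274-32341323, minus strand): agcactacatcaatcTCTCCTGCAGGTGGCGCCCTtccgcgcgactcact

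The beta cluster spans chr7:103812524-103853216, which is 40693 bp, and its 4 listed genes are all on the minus strand. Hbb-bt and Hbb-bs, the adult genes, lie at chr7:103812524-103813996 and chr7:103826534-103828096. Hbb-bh1 and Hbb-y, the embryonic genes, lie at chr7:103841637-103843164 and chr7:103851749-103853216. Between the ends of the cluster there was no optimal peak, although it also holds Hbb-bh2, Hbb-bh3 and Hbb-bh0. The summits that flank it were 66170 bp apart, where the median distance between neighbouring summits on the autosomes was 13248 bp and 12.6% of those distances were as long.

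On the Hbb-bt side there was 1 peak, beta peak 1, with its summit at position 103807082, 5442 bp beyond the cluster. Its signal was 86.0 in replicate 1, 80.3 in replicate 2 and 169 in the optimal list, at percentile 69.8 of all optimal peaks. The signal is the deposited height of a peak, its scale is not given in the sources used here, and it was not scaled between libraries. No other optimal summit lay between beta peak 1 and the window's edge, while a further summit with a signal of 37.1 lay 322 bp outside that edge.

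On the Hbb-y side, from which the locus control region acts, there were 4 peaks. The nearest, beta peak 2, lay 20036 bp beyond Hbb-y and reached 124 in replicate 1, 111 in replicate 2 and 237 in the optimal list. Beta peak 3, at 21427 bp, was weaker, with 55.7 in replicate 1, 39.6 in replicate 2 and 95.7 in the optimal list. These neighbours kept their order in both replicates. Beta peak 4, at 59967 bp, was the weakest of the window, with 26.8, 24.3 and 53.2 in the same order of lists. Beta peak 5, at 89735 bp, was the strongest, with 177, 147 and 325, and it lay 1486 bp upstream of the start of Olfr633, an olfactory receptor gene. The order of all 5 peaks by signal was the same in both replicates, and all 5 were intergenic and in the conservative list as well.

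Beta peak 2 was the 1 beta peak with no motif. Its best 20 bp scored 4.38, where the threshold of 1e-05 is a score of 11.2 and a looser one of 1e-04 a score of 4.7, so it missed the looser threshold by little. Its G and C content was 30.2%, and 26.4% of it was masked as repeat. Across the genome, optimal peaks with a motif had a median signal of 119.7 and those without one a median of 47.9, so beta peak 2, at 237, was well above the middle of the peaks without a motif. Its whole sequence is shown on the plus strand because it is the strong peak nearest to Hbb-y, with the best 20 bp, which read in motif direction on the minus strand, in capitals.
beta peak 2 (chr7:103873133-103873367, plus strand): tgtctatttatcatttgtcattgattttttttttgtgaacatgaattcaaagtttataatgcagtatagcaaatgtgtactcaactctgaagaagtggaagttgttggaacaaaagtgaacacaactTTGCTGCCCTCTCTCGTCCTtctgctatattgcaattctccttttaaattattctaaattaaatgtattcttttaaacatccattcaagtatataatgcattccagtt

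**Figure D1:**
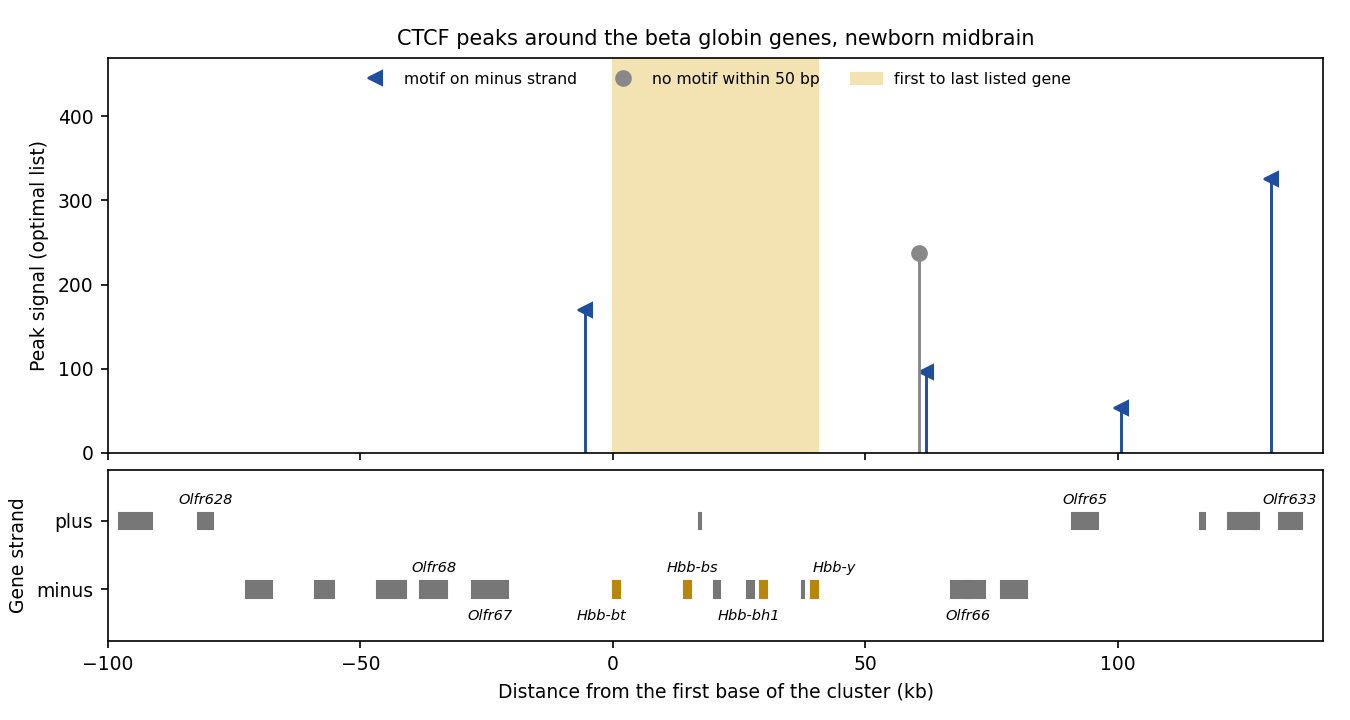
Signal of the 5 optimal CTCF peaks (vertical axis, deposited units) by distance of the summit from the first base of the beta cluster (horizontal axis, kb), with marker shape for the motif strand and the genes as boxes (listed genes in gold, other genes in grey). No stem stands in the shaded cluster, 1 stands on the Hbb-bt side and 4 on the Hbb-y side, and the 4 arrows point the same way.

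The alpha cluster spans chr11:32276400-32297298, which is 20899 bp, and its genes are on the plus strand. Hba-x, the embryonic zeta-type gene, lies at chr11:32276400-32278116, and the adult genes Hba-a1 and Hba-a2 at chr11:32283511-32284465 and chr11:32296489-32297298. Hbq1b and Hbq1a, the theta genes, follow Hba-a1 and Hba-a2 respectively. Here 2 optimal peaks lay between the ends of the cluster, 14 on the Nprl3 side and 6 beyond Hba-a2. Signals in the window ran from 10.3 to 394 with a median of 115, where the median of all optimal peaks was 76.5.

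The strong peak inside the cluster was alpha peak 16, with its summit 2 bp upstream of the start of Hbq1b. It had a signal of 108 in replicate 1, 107.5 in replicate 2 and 217 in the optimal list. Its counterpart, alpha peak 17, lay 1 bp upstream of the start of Hbq1a and 2770 bp beyond the end of Hba-a2, with 128 in replicate 1, 119 in replicate 2 and 248 in the optimal list. Both theta starts thus carried a peak of nearly the same height, and the peak at Hbq1a was the higher in each replicate.

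The 50 bp printed for these 2 peaks are identical. The peaks themselves, 173 bp and 169 bp long, aligned with 163 identical bases, 5 mismatches and 6 gap columns, which is 93.7% identity. Only 49.3% of the 36-base words in alpha peak 16 and 47.8% of those in alpha peak 17 occur once in the reference, where every other peak of the windows except alpha peak 15 had at least 97.3%. With words of 100 bases, counted over each peak and 50 bp on each side of it, the shares were 96.6% and 96.5%. Over 501 bp around each summit, 482 bases were identical and 19 differed. How reads that match both copies were placed is not given in the sources used here, so the 2 signals may share reads. Their small difference cannot be read, and whether both copies were bound or only 1 of them cannot be told either.

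The weak peak inside the cluster, alpha peak 15, lay 1095 bp upstream of the start of Hbq1b and 9470 bp from the first base of Hba-x. It reached 17.0 in replicate 1 and 26.4 in the optimal list, and the nearest summit of replicate 2 had 9.42 and lay 202 bp away. Of its 36-base words, 68.7% occur once in the reference, and no motif was found. Inside the cluster, then, 1 peak was strong and present in both replicates and 1 was weak and not matched in replicate 2 within 100 bp.

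Toward the enhancers, the nearest peak was alpha peak 14, 8998 bp from Hba-x and 145 bp downstream of a start of Nprl3, whose protein is part of a complex that restrains the growth kinase mTORC1. It was weak, with 22.8 in replicate 1, 12 in replicate 2 and 35.2 in the optimal list, and a motif appeared there only at the looser threshold of 1e-04. Alpha peak 13, in an intron of Nprl3 29142 bp from Hba-x, reached 66.3, 55.6 and 122. Alpha peak 12, at 35668 bp near another Nprl3 start, was the lowest of the window at 10.3 in the optimal list and had no summit within 100 bp in either replicate list. It overlapped alpha peak 11, which had a signal of 25.4 in replicate 1, 16.4 in replicate 2 and 40.8 in the optimal list. The replicate summits nearest to alpha peak 12, 176 bp away in replicate 1 and 219 bp away in replicate 2, were those of alpha peak 11.

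The highest signal near the alpha genes was at alpha peak 10, within Nprl3 and 37746 bp from Hba-x, with 211 in replicate 1, 184 in replicate 2 and 394 in the optimal list. It stood at percentile 93.5 of all optimal peaks, and its motif was on the minus strand. Alpha peak 9, 39177 bp from Hba-x and near the same group of Nprl3 starts, had 136 in replicate 1, 129 in replicate 2 and 264 in the optimal list. Like beta peak 2 it had no motif at either threshold, and its best 20 bp, shown in motif direction to set beside the printed motifs, scored -0.71.
best 20 bp of alpha peak 9 (chr11:32237209-32237228, plus strand): CTGGCCACTGGGGGCGCCAT

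Among the 7433 optimal peaks with a signal from 200 to 300, 20.9% had no motif, so strong peaks without one, such as beta peak 2 and alpha peak 9, were a sizeable minority of this list. No match says only that these letters scored below the threshold in this stretch. The matrix scores 20 bp without gaps, so a motif with a base missing or added inside would be scored low.

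Beyond Hba-a2, the next 3 peaks after the one at Hbq1a were all strong. Alpha peak 18, at 24087 bp, had 119 in replicate 1, 123 in replicate 2 and 242 in the optimal list. Alpha peak 19, at 27545 bp, was the second highest of the window, with 195, 168 and 361. Alpha peak 20, at 43995 bp, had 141, 117 and 259. Peaks 17, 18 and 20 differed among themselves in opposite directions in the 2 replicates, so their order is not resolved, while alpha peak 19 was the highest of the 4 in both.

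Further out on the Nprl3 side, alpha peak 6 lay 272 bp downstream of a start of Rhbdf1, which encodes an inactive rhomboid protein. It was the third highest of the window in the optimal list, at 354, with 194 in replicate 1 and 159 in replicate 2. Snrnp25, a gene of the minor spliceosome, had alpha peak 5 at 293 bp upstream of its start, with 60.9, 45.3 and 108. Il9r, the interleukin 9 receptor gene, had alpha peak 4 at 126 bp, with 11.8, 12.6 and 26.0, and that peak was not in the conservative list. The other alpha peaks, numbered 1, 2, 3, 7 and 22, ranged from 26.9 at alpha peak 1 to 346 at alpha peak 2. Alpha peak 2 lay 93702 bp from Hba-x, with 182 in replicate 1 and 165 in replicate 2. It was below alpha peak 6 in replicate 1 and above it in replicate 2, so their order is not resolved. In all, 10 alpha peaks were within 1 kb of a start, 1 was in an exon, 2 were in introns and 9 were intergenic. The shares of all optimal peaks in these classes are not given here. Neither these counts nor the 5 intergenic beta peaks can therefore be called unusual or ordinary.

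**Figure D2:**
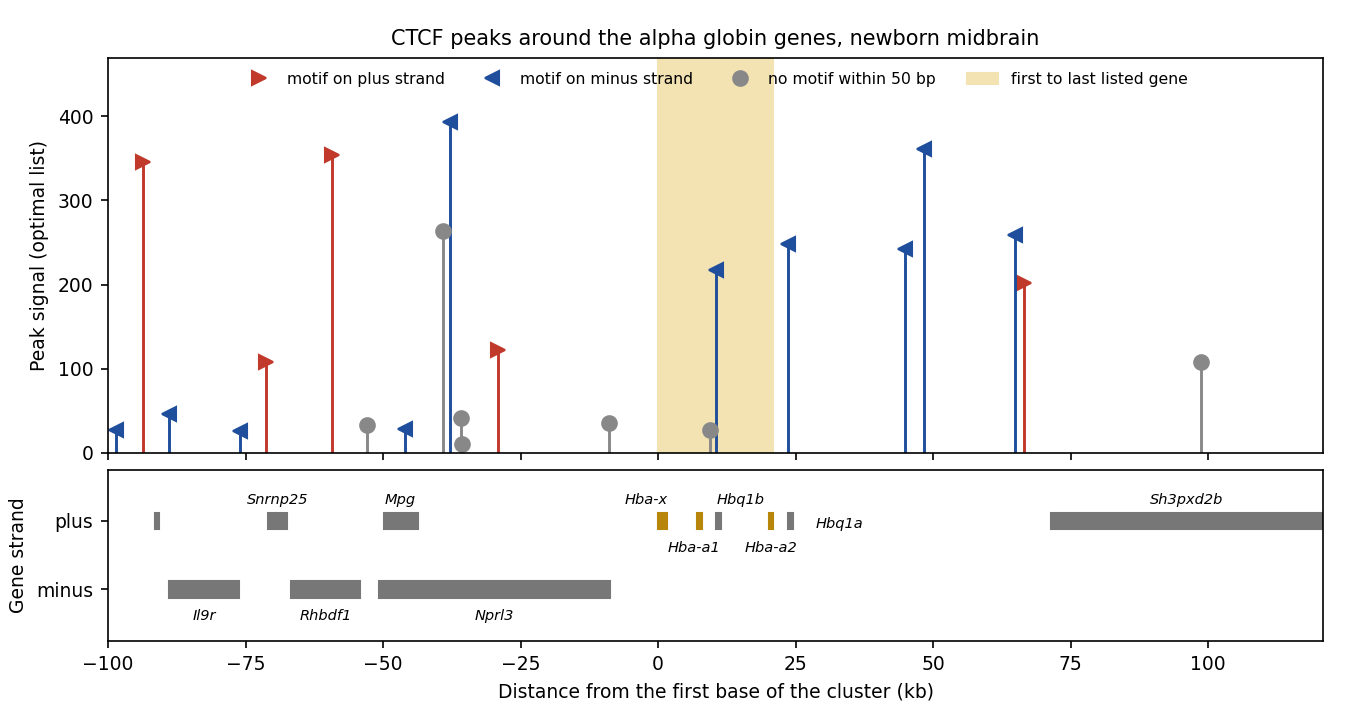
Signal of the 22 optimal CTCF peaks (vertical axis, deposited units) by distance of the summit from the first base of the alpha cluster (horizontal axis, kb), with marker shape for the motif strand and the genes as boxes (listed genes in gold, other genes in grey). The 2 stems in the shaded cluster stand near Hbq1b, and the first 5 blue arrows from there to the right all point left, while the nearest red arrow on the Nprl3 side points right.

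The windows differed in how many peaks they held. The beta window had 20.8 peaks per Mb, where chromosome 7 had 31.2, and the alpha window had 99.6, where chromosome 11 had 41.3 and the autosomes 28.0. When the autosomes were cut into consecutive windows of the beta length, the median window held 5 peaks, the same number as the beta window, and 46.1% of 9864 windows held fewer. Of 10762 windows of the alpha length, 97.6% held fewer than 22 peaks and 2.36% as many or more. The beta window was thus ordinary in its number of peaks and the alpha window among the most densely occupied.

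Base composition and gene content also differed between the windows, and their part in the peak counts was not tested. G and C made up 38.3% of the beta window and 48.4% of the alpha window. The beta window held 18 coding genes and the alpha window 11. Of the 18, 13 were olfactory receptor genes, and 0 of those 13 had an optimal peak within 1 kb of a start, as did 0.881% of all 1135 olfactory receptor coding genes. In the alpha window 4 of the 6 coding genes that are not globin genes had one, namely Il9r, Snrnp25, Rhbdf1 and Nprl3, where 43.4% of all 21755 coding genes had one.

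**Figure D3:**
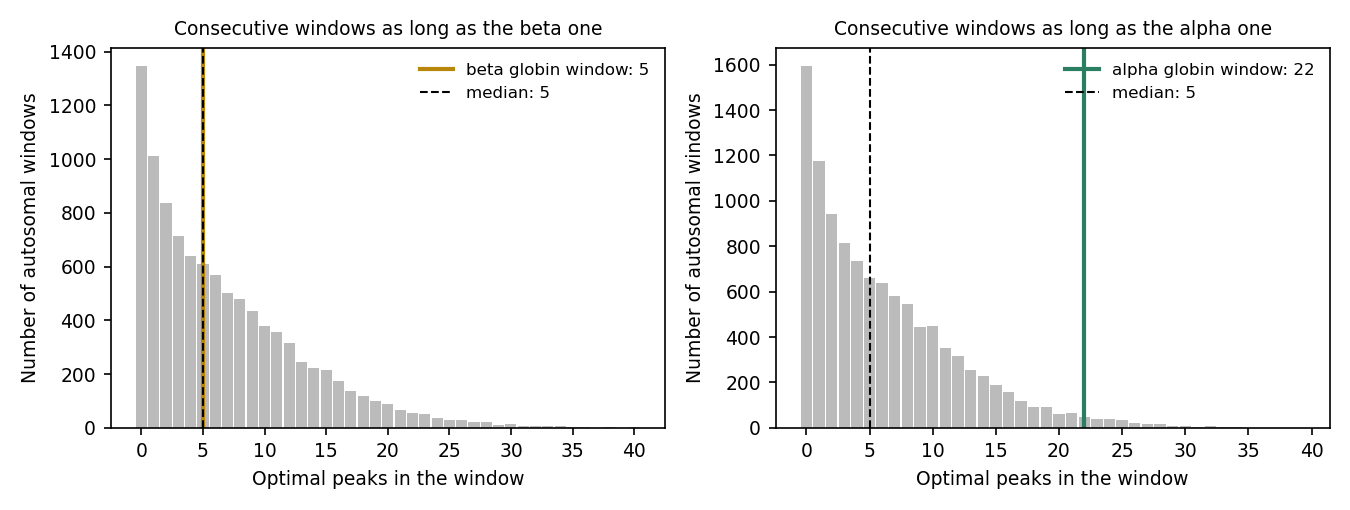
Number of autosomal windows (vertical axis) by the number of optimal CTCF peaks they hold (horizontal axis), for consecutive windows as long as the beta window (left) and the alpha window (right), with the globin window as a solid line and the median as a dashed line. The beta line at 5 falls on the median, and the alpha line at 22 falls in the right tail.

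Agreement between the replicates was close at strong peaks and looser at weak ones. All 5 beta peaks and 19 of the 22 alpha peaks had a summit within 100 bp in both replicate lists. Of all 68590 optimal peaks, 67101 had one in both, a larger share than in the alpha window. The median log2 ratio of replicate 1 to replicate 2 was 0.16 over the beta peaks and 0.25 over the alpha peaks, and 0.30 over all optimal peaks, with an SD of 0.46. All peaks in both lists lay within 1 SD of that genome-wide median except alpha peaks 14 and 8, and alpha peak 14 was 0.62 above it. The largest departure was at alpha peak 8, in an exon of Mpg, a DNA repair gene, 46001 bp from Hba-x. It had 22.5 in replicate 1, 4.22 in replicate 2 and 27.9 in the optimal list, a log2 ratio 2.11 above the genome-wide median, and it was not in the conservative list.

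Of the 3 alpha peaks without a match in both lists, alpha peaks 12 and 15 were weak and are described above. Alpha peak 21 was strong, with 107 in replicate 2 and 202 in the optimal list. In replicate 1 the nearest summit, with a signal of 102.7, lay 140 bp away, outside the distance allowed. This peak is 413 bp wide and held a further motif match 157.5 bp from its summit, which scored 21.4 beside 20.9 at the summit. Whether the 2 replicates peaked at the same site was not tested.

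**Figure D4:**
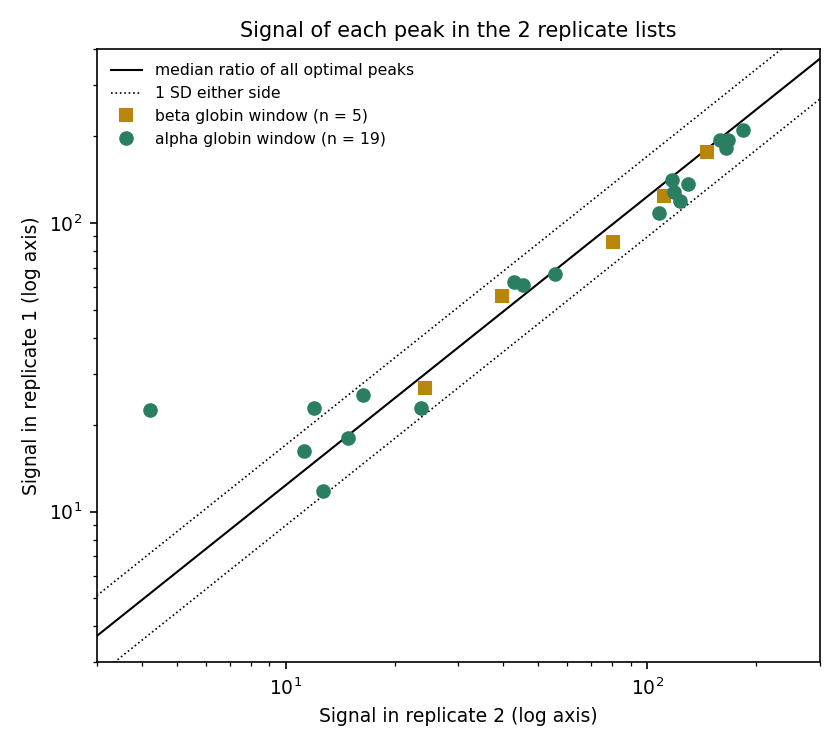
Signal in replicate 1 (vertical log axis, deposited units) against signal in replicate 2 (horizontal log axis) for the 5 beta peaks and the 19 alpha peaks found in both replicate lists, with the median ratio of all optimal peaks as a solid line and 1 SD either side as dotted lines. All points but 2 lie between the dotted lines, and alpha peak 8, at 22.5 and 4.22, stands apart on the left.

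None of the 7 listed globin genes had an optimal peak within 1 kb of an annotated start, where 43.4% of 21755 coding genes had one. These 7 have from 1 to 3 annotated starts each, and the share was not matched for that number. For the beta genes the nearest summit lay 6914 bp from the start of Hbb-bt, 20643 bp from Hbb-bs, 30088 bp from Hbb-bh1 and 20036 bp from Hbb-y. For the alpha genes it lay 2059 bp from Hba-a1, 3440 bp from Hba-a2 and 8977 bp from Hba-x. The distance for Hba-a1 rested on the weak alpha peak 15, and without that peak, or without replicate 1, it was 3152 bp. The adult alpha genes thus lay nearest to a summit among the listed genes, and none was as close as the theta genes. Of the other 5 globin genes in the windows, Hbq1a and Hbq1b had a peak at the start, and Hbb-bh0, Hbb-bh2 and Hbb-bh3 had none.

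The same held in the list of both replicates pooled, which is not thresholded by reproducibility and reaches down to weak summits: 0 of 7 listed genes had a summit within 1 kb, where 71.4% of coding genes had one. Between the ends of the beta cluster that list held 1 summit, 119 bp downstream of the start of Hbb-bh2, with a signal of 8.88 in the pooled list and 4.59 in replicate 1 and none listed in replicate 2. At rank 187251 of the pooled list it was below every optimal peak of the window. Between the ends of the alpha cluster the pooled list held 3 summits, which are the 2 optimal peaks and 1 more. Because the sequencing depth is unknown, a start without a summit is one where none was listed.

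Part of the sequence at these starts is repeated in the genome, which bears on what could be mapped there. Within 1 kb of the start, 27.1% of 36-base words at Hba-a1 and 20.9% at Hba-a2 occur once in the reference. The adult beta genes Hbb-bt, with 57.3%, and Hbb-bs, with 64.7%, were also partly repeated. At Hbb-bh1, with 99.3%, Hbb-y, with 100%, and Hba-x, with 96.7%, nearly all words were unique, and no summit was listed. At Hbq1b and Hbq1a, where strong peaks were listed, the shares were 61.5% and 62.3%. These lie between Hbb-bt and Hbb-bs and above Hba-a1 and Hba-a2. From gene start to gene end, Hba-a1 and Hba-a2 aligned with 793 identical bases, 1 mismatch and 177 gap columns. With gap columns counted, that is 81.7% identity, for annotated lengths of 955 bp and 810 bp. Hbb-bt and Hbb-bs aligned with 1404 identical bases, 62 mismatches and 104 gap columns, or 89.4% on the same measure. The part of repeated sequence in the missing summits at the 4 adult genes was not tested.

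**Figure D5:**
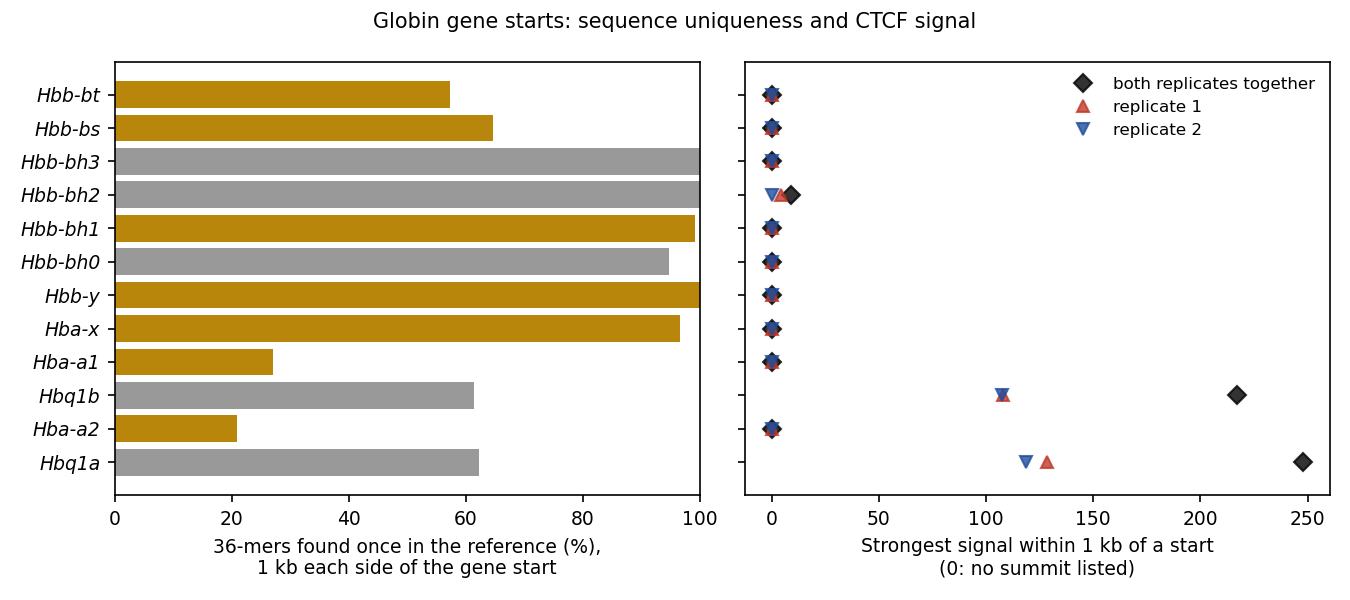
Share of 36-base words within 1 kb of each globin gene start that occur once in the reference (left, percent), and the strongest CTCF signal within 1 kb of that start (right, deposited units; 0 means no summit listed), for the listed genes (gold) and the other globin genes of the windows (grey). Only Hbq1b and Hbq1a reach strong signals, at 217 and 248 in both replicates together, and Hbb-bh1, Hbb-y and Hba-x are at 0 with nearly all words unique.

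Motif matches were more common than peaks. The beta window held 12 matches on either strand, of which 4 had an optimal summit within 50 bp, and the alpha window held 42, of which 17 had one, so some alpha peaks covered more than 1 match. On all of chromosome 7 the share was 22.2% and on chromosome 11 24.6%, beside 33.3% and 40.5% in the windows. Between the ends of the beta cluster there were 2 matches, near the last bases of Hbb-bt and of Hbb-bs, with the same 20 bp in both genes and no summit at either. Their shared sequence, on the minus strand at chr7:103812691-103812710 and chr7:103826700-103826719, is shown because it is the only sequence matched inside the beta cluster.
match in Hbb-bt and Hbb-bs: CTTCCAGAAGGTGGTGGCTG

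Between the ends of the alpha cluster there were also 2 matches. One is the motif of alpha peak 16, and the other lies in a masked repeat upstream of Hbq1b. There the pooled list has a summit with a signal of 23.9 that is not in the optimal list. The conservative list held 3 peaks between the cluster ends, beside 2 in the optimal list. A match with the same 20 bp as the one in the repeat upstream of Hbq1b lies in a masked repeat upstream of Hbq1a, with a pooled signal of 12.1. At these weak summits only 16.4% and 16.7% of the 36-base words occur once in the reference, so they too may share reads, and the one upstream of Hbq1a had no summit in the replicate 2 list. Alpha peak 15, upstream of Hbq1b, had no listed counterpart upstream of Hbq1a.

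The regulators of the globin genes were a list of 25 transcription factors, cofactors and RNA-binding proteins of red cell development and globin switching. Of these, 17 had an optimal peak within 1 kb of a start, or 68.0%, beside the 43.4% of all coding genes. A gene counted if any of its annotated starts had a peak. The shares were not matched for the number of starts, which was 13 at Sox6 and 1 at Klf1. All coding genes include 1135 olfactory receptor genes, of which 0.881% had a peak. Zfpm1, the partner of the GATA factors, had 193 in replicate 1, 203 in replicate 2 and 394 in the optimal list, and Sox6, a silencer of embryonic globin genes, had 212, 177 and 388. These were the 2 highest in the optimal list, and their order was opposite in the 2 replicates, so it is not resolved. Bcl11a, a repressor of fetal and embryonic globin genes, had 82.1, 78.2 and 161. Nr2c1, an orphan receptor that represses embryonic globin genes, had 129, 120.2 and 248.

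Peaks at the other regulators were mostly lower. Gfi1b, a repressor needed for red cell formation, had 151 in the optimal list, Ldb1, the bridging protein of enhancer loops, 101, and its partner Lmo2 93.6. The other 10 with a peak were Mbd2, Nfe2, Lin28b, Klf3, Nfe2l2, Chd4, Zbtb7a, Lyl1, Myb and Mafk, with signals from 24.2 at Mafk to 88.1 at Mbd2. None was listed at Gata1, Gata2, Klf1, Tal1, Bach1, Nr2c2, Igf2bp1 or Hmga2. Klf1, an activator of the adult beta genes, had its nearest summit at 1265 bp with a signal of 229, and Gata2 at 1189 bp with 29.7.

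Of 22 genes of heme synthesis and red cell function, 13 had a peak at a start, or 59.1%, beside the 43.4% of all coding genes. These shares were likewise not matched for the number of starts. The heme enzyme gene Urod had the highest, with 242 in replicate 1, 209.7 in replicate 2 and 451 in the optimal list. Slc25a38, a mitochondrial carrier needed for heme synthesis, had 153, 159.5 and 312. The heme enzyme genes Ppox, with 174, Cpox, with 128, and Fech, with 34.4, also had a peak, as did the carbonic anhydrase gene Car2, with 133. Peaks were also listed at Tfrc, Epor, Hmox1, Ank1 and Sptb, from 25.5 at Sptb to 59.5 at Tfrc. None was listed at Alas1, Alas2, Alad, Uros, Slc25a37, Slc4a1, Epb42 or Car1.

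The globin genes outside the clusters were like the listed genes in this respect. Ngb, the neuroglobin gene of nerve cells, Cygb, the cytoglobin gene, and Mb, the myoglobin gene, had 0 of 3 starts with an optimal peak, and their nearest summits lay 13835, 3691 and 3045 bp away. All 3 had a weak summit within 1 kb in the pooled list, with 10.4 at Ngb, 9.93 at Cygb and 7.22 at Mb. With 3 genes the count says little beside the 43.4% of all coding genes.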

How the data were processed

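CTCF ChIP-seq peaks from midbrain were measured in 2 replicates of 1 group. The authors deposited 5 peak lists on mm10: 1 per replicate, 1 of both replicates together, and 2 (optimal and conservative) filtered by IDR, the irreproducible discovery rate, a measure of how well peaks keep their rank from one peak set to another. The signal per peak is the authors' own value; not given in the sources used here are its scale, the aligner, the peak caller, the IDR cut-off and the depth. With depth unknown, a place without a peak is one where none was listed. Of the optimal peaks, 55.2% are exactly 310 bp wide, so the ends of such peaks were not interpreted.

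Summits were taken 1-based, and replicate values are the nearest summit within 100 bp. Gene starts are those of GENCODE vM21, and sequence is RefSeq GRCm38.p6. A gene had a start peak when any of its starts did, and shares of genes were not matched for the number of starts. The motif matrix of 20 bp came from the 2000 strongest optimal peaks of even-numbered chromosomes. A word of 36 bases was called unique when it occurs once in the reference on either strand. Windows of equal length tiled the autosomes, without those that held 10% or more undetermined bases. Motif learning, scoring and word counting were tested on simulated data. Python 3.11.15, numpy 2.4.6, pandas 2.3.3, Biopython 1.88 and matplotlib 3.10.9 were used. No test was made, since there was 1 group.

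The members and gene lists were chosen with earlier results of these data known. Named are the peaks between the cluster ends, the 3 nearest outside each end, the 3 highest and the lowest of each window, the globin genes, genes with a start peak in a window, and the listed regulators and heme genes. Alpha peaks 1, 2, 8 and 21 were named after their values were seen. Ahsp was not matched by symbol, so 22 heme and red cell genes were counted, though not all are reported here by name. Alternatives were the other peak lists, each replicate alone, other flanks, start distances, summit distances, motif settings and word lengths.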

Additional observations from a re-analysis of the deposited data

How the results depend on the processing

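Of 84 alternative values, 72 were equal to the value reported or within 1.5 times of it, the tolerance used throughout, under which small counts pass or fail by a single peak. Of the other 12, 2 are the distance from Hba-a1 to the nearest summit, 3152 bp both without replicate 1 and without alpha peak 15, alternatives chosen after seeing the data. With flanks of 50 kb, the beta window held 3 peaks and the alpha window 14, and with 200 kb the alpha window held 40 and the beta window had 13.6 peaks per Mb. With the stronger 50% of the optimal list, the alpha window held 13 peaks and the alpha cluster 1. Using the whole pooled list, 1 summit fell between the ends of the beta cluster. Leaving out either replicate gave from 1 to 2 peaks between the ends of the alpha cluster, since alpha peak 15 was missing without replicate 1. Moving the end of that cluster to Hbq1a, also chosen after seeing the data, gave 3. With start regions of 5 kb, 2 listed genes, Hba-a1 and Hba-a2, had a peak, where 61.3% of coding genes had one. At a motif threshold of 1e-06, 8 alpha peaks had a motif. Within the tolerance, the conservative list held 6 peaks in the beta window and 25 in the alpha window, more than the optimal list. The 0 of 7 listed genes with a start peak within 1 kb stayed 0 in every peak list and with each replicate left out. No conclusion about the absence of CTCF can be drawn where none was listed, because depth is unknown.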
